A study of Homo sapiens with 12 samples.

Results

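Mitochondrial ribosomal protein genes were taken as the listed genes whose symbol begins with MRPL or MRPS and a number. 66 of the 8842 genes listed in the expression tables met this rule, 44 named for the large subunit (MRPL) and 22 for the small subunit (MRPS), out of 77 such protein-coding genes in RefSeq. The other 11 (MRPL16, MRPL17, MRPL35, MRPL55, MRPL57, MRPS6, MRPS21, MRPS25, MRPS26, MRPS33 and MRPS35) and MRPS36 were not analysed here. RNA-seq had been made from 12 libraries of the human liver cancer lines HepG2 and LM3. Each line was transfected by lipofection with a small interfering RNA against the long noncoding RNA FASRL (siFASRL) or with the control siRNA (siNC), with 3 replicates in each of the 4 groups, and cells were harvested 48 h later. FASRL itself was not analysed here, so how far it was knocked down was not checked on these values. Values are the normalized expression per gene deposited by the authors, and the read depth behind them is unknown. Among 10 hepatocyte markers, 9 were listed. Albumin (ALB) averaged 815 ± 31.7 (SD, n = 3) in HepG2 siNC and 0.360 in LM3 siNC, and of these markers only HNF4A passed the filter on low values in LM3.

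Mitochondrial ribosomes sit in the mitochondrial matrix and translate the few messenger RNAs that the mitochondrial genome encodes, all for subunits of the oxidative phosphorylation complexes. Their RNAs come from the mitochondrial genome, whereas every protein of both subunits is encoded in the nucleus, made in the cytosol and imported. Some of the proteins descend from bacterial ribosomal proteins and others are found only in mitochondria. Liver cells are rich in mitochondria.

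Knockdown of FASRL came with higher values of most of the 66 genes in either line. In HepG2, 50 rose, 6 fell and 10 did not pass an adjusted p of 0.05 in limma, beside 44.8% of all 8144 genes tested that rose and 44.3% that fell. In LM3, 47 rose, 3 fell and 16 did not pass, beside 33.9% of 7483 genes that rose and 43.5% that fell. The shares that rose were therefore 75.8% of members in HepG2 and 71.2% in LM3. The median difference between siFASRL and siNC, on the log2(value + 1) scale, was 0.35 over the members and 0.10 over all genes tested in HepG2. It was 0.31 over the members and -0.06 over all genes in LM3. Across the 66 genes the differences ran from -0.59 to 1.13 in HepG2 and from -0.43 to 0.82 in LM3. All 66 passed the filter on low values in each line. These p-values measure only the spread between these samples, since nothing in the labels says that replicates were separate cultures.

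**Figure D1:**
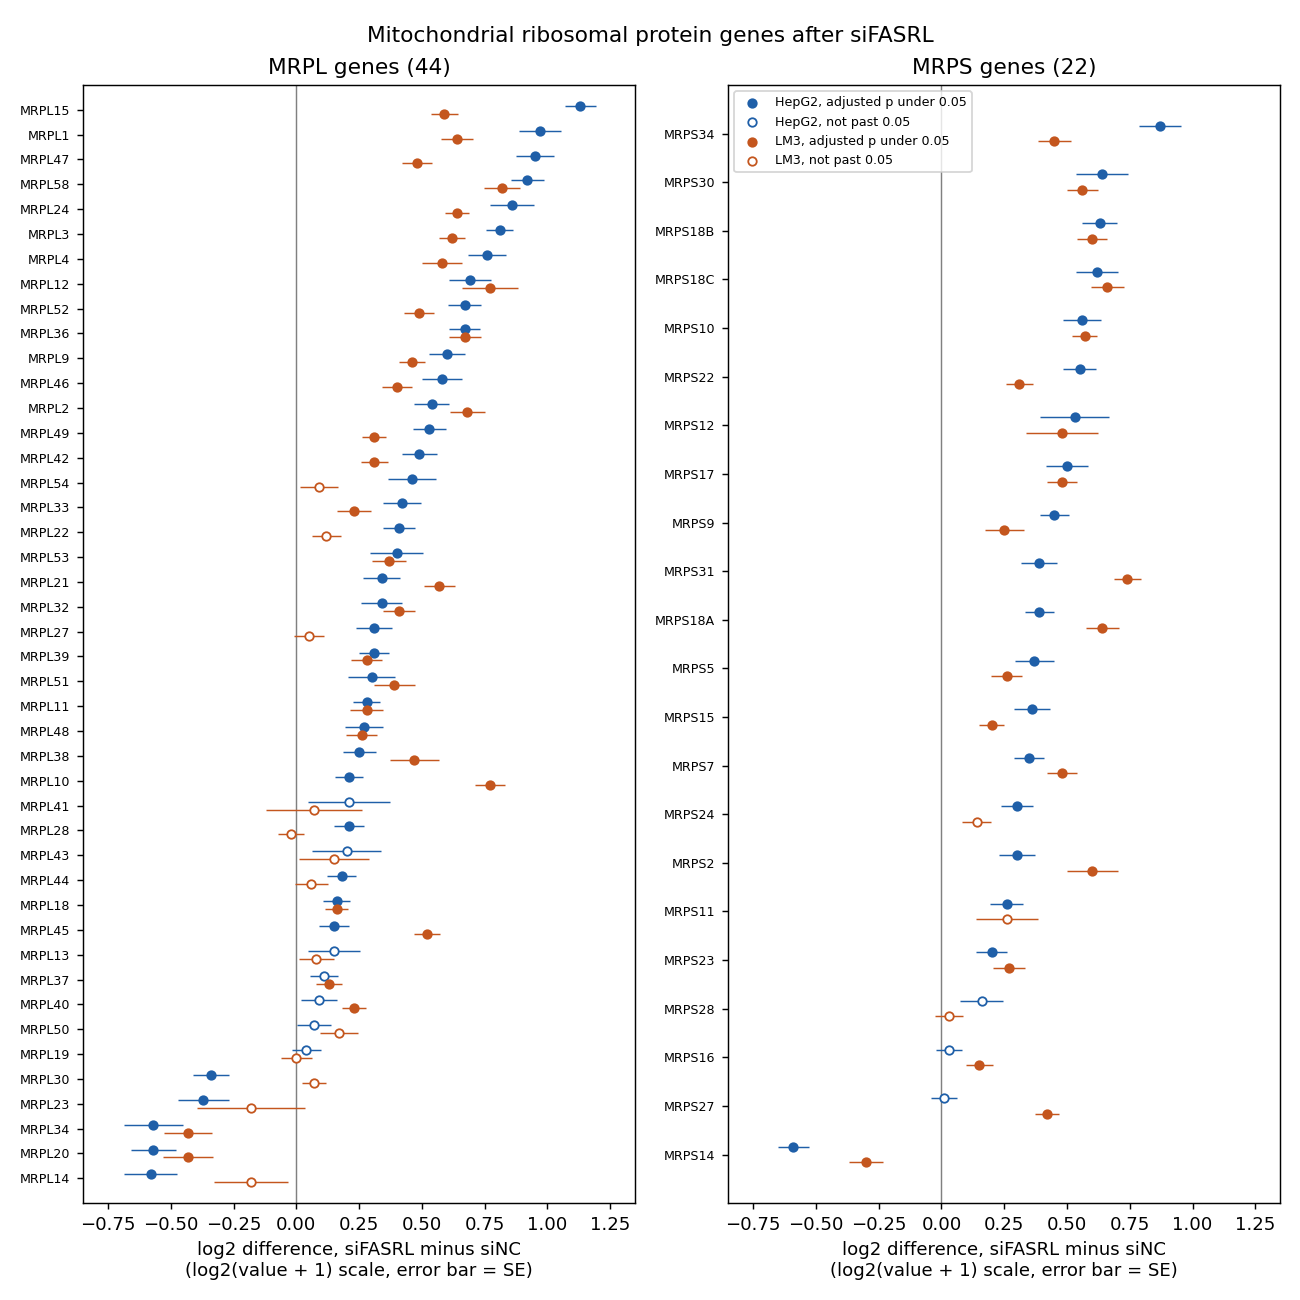
Log2 difference between siFASRL and siNC for the 44 MRPL and 22 MRPS genes, ordered by HepG2, with blue for HepG2, orange for LM3, bars for the SE, and filled points for an adjusted p under 0.05. Most points lie to the right of 0 in both lines, with MRPL15 highest at 1.13 in HepG2 and MRPS14 lowest at -0.59.

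The sizes were moderate. With a pseudocount of 1, MRPL15 passed a log2 difference of 1 in HepG2 and no member passed it in LM3, beside 3.61% of all genes up and 6.79% down by that much in HepG2, and 1.42% up and 6.20% down in LM3. MRPL1 in HepG2 also passed with a pseudocount of 0.1 (1.04) or after quantile normalization (1.03). In HepG2 every siFASRL library lay above every siNC library for 50 members, beside 45.4% of all genes, and below for 6, beside 44.2%. In LM3 the counts were 49, beside 35.6%, and 3, beside 44.6%. In 43 members the rise passed the threshold in both lines, beside 29.6% of the 7349 genes tested in both, and 3 (MRPL20, MRPL34 and MRPS14) fell in both, beside 36.0%. Without scaling, no member passed the threshold upward in one line and downward in the other. After median-of-ratios scaling 1 did, since MRPL30 in HepG2 was then at -0.34 (adjusted p = 0.000772) while MRPL30 in LM3 was at 0.19 (adjusted p = 0.00581). Across the 66 genes the differences in HepG2 and LM3 had a Pearson correlation of 0.794 and a Spearman correlation of 0.726, beside 0.794 and 0.797 over all 7349 genes.

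**Figure D2:**
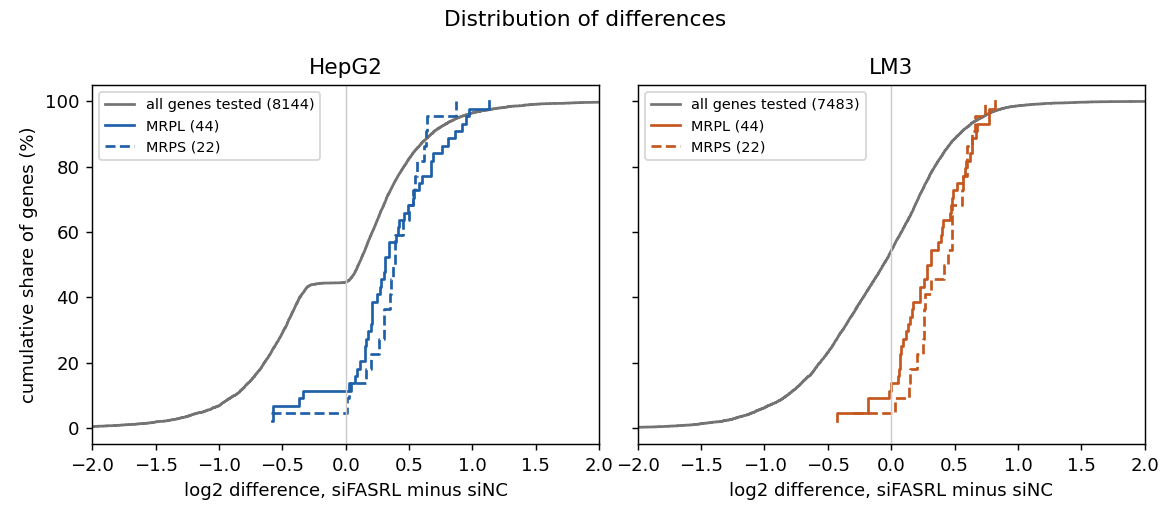
Cumulative share of genes (%) against the log2 difference between siFASRL and siNC in HepG2 and LM3, for all genes tested (grey), MRPL genes (solid) and MRPS genes (dashed). The member curves lie to the right of the grey curve between -0.5 and 0.5, and the flat stretch of the grey curve in HepG2 is the range in which almost no gene is listed.

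The tables list only some genes, and among 6367 genes with a mean of at least 5 in HepG2 only 5 had a log2 ratio between -0.20 and -0.04, against 916 between 0.04 and 0.20. The rule of listing is not given in the sources used here, and no member lay in that range, so counts of unchanged or slightly lower members in HepG2 may be incomplete. The HepG2 shares of all genes rest on the same listed genes and carry the same limit. Scaling by the median of ratios moved the median of all genes in LM3 by 0.11, and relative to all genes the member median then stood 0.38 higher, as against 0.37 unscaled and 0.27 after quantile normalization. In HepG2 it stood 0.24 higher, or 0.19 after quantile normalization. Median-of-ratios scaling also turned the LM3 counts over all genes from 2536 higher and 3254 lower to 3140 and 2769, and gave 57 members higher and 3 lower. The member median stayed above 0 under both scalings tried.

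Summed over the 66 genes, the values were 3440, 3710 and 3590 in the 3 HepG2 siFASRL libraries and 2720, 2780 and 2840 in HepG2 siNC. LM3 gave 3710, 3740 and 3700 after siFASRL and 2810, 2980 and 2990 after siNC. The siFASRL libraries were above all siNC libraries of their line. As a share of the sum over all listed genes, members took 1.02% ± 0.0271 (SD, n = 3) in HepG2 siFASRL and 0.829% ± 0.0111 (SD, n = 3) in HepG2 siNC. In LM3 the shares were 1.07% ± 0.00264 (SD, n = 3) and 0.916% ± 0.0244 (SD, n = 3).

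By RefSeq (GRCh38.p14), genes described next include MRPL1 (gene ID 65008) at chr4:77862830-77952785, MRPL58 (gene ID 3396) at chr17:75012670-75021261, MRPL20 (gene ID 55052) at chr1:1401909-1407293, MRPS34 (gene ID 65993) at chr16:1771895-1773134 and MRPS14 (gene ID 63931) at chr1:175012958-175023425. Among the large subunit genes, MRPL15, a core protein with a bacterial counterpart (uL15m), had the largest difference in HepG2, while in LM3 MRPL58, MRPL12, MRPL10 and others were above it. Its values were 40.22, 43.49 and 40.94 after siFASRL against 17.78, 17.81 and 19.58 after siNC in HepG2. In LM3 they were 36.18, 38.30 and 35.74 against 25.09, 23.24 and 23.71. The knockdown libraries were higher in both lines with no overlap, and the means of the lines were closer after knockdown than in the controls. The log2 difference was 1.13 (SE 0.0617, adjusted p = 2.57e-07) in HepG2 and 0.59 (SE 0.0543, adjusted p = 1.73e-05) in LM3.

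MRPL1 forms the mobile L1 stalk beside the site where spent transfer RNAs leave. It was listed at 16.37, 19.02 and 18.90 against 9.65, 7.94 and 8.69 in HepG2, and at 10.63, 9.30 and 10.65 against 6.04, 6.55 and 6.01 in LM3. Its groups did not overlap in either line, and its mean was 2.07 times the control in HepG2 and 1.64 times in LM3 (log2 difference 0.97, adjusted p = 3.53e-06, and 0.64, adjusted p = 3.44e-05). MRPL47 is the mitochondrial L29 protein, which lies near the exit of the peptide tunnel. HepG2 values were 42.23, 49.00 and 51.10 against 25.08, 22.97 and 24.10, and LM3 values 48.08, 54.97 and 53.25 against 37.22, 36.82 and 37.14. Both comparisons were without overlap, with log2 differences of 0.95 (adjusted p = 2.67e-06) and 0.48 (adjusted p = 0.000113).

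MRPL58, also known as ICT1, is a peptidyl-tRNA hydrolase that frees stalled ribosomes and is built into the large subunit as well. It had 49.33, 55.46 and 54.95 against 27.01, 27.05 and 28.99 in HepG2, and 31.99, 30.97 and 30.49 against 15.34, 18.20 and 18.33 in LM3. All 6 siFASRL libraries were above the controls of their line, and MRPL58 was among the 5 largest increases of each line (0.92, adjusted p = 1.13e-06, and 0.82, adjusted p = 1.45e-05). MRPL2, which lies at the peptidyl transferase centre, averaged 58.6 ± 3.75 after siFASRL and 40.1 ± 2.65 after siNC (SD, n = 3) in HepG2. The LM3 means were 35.4 ± 1.45 and 21.8 ± 1.82 (SD, n = 3), and both rises passed. The log2 differences were 0.54 and 0.68, at adjusted p = 5.99e-05 and 3.31e-05 in limma.

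MRPL12 and MRPL10 belong to the stalk that receives translation factors, with MRPL10 as the base that holds MRPL12. MRPL12 was listed at 122.15, 140.34 and 135.45 against 78.06, 91.52 and 75.92 in HepG2, and at 122.47, 115.11 and 112.43 against 55.39, 74.97 and 74.86 in LM3. Its log2 differences of 0.69 and 0.77 were alike in size. MRPL10 had 40.63, 38.85 and 38.77 against 32.75, 35.61 and 33.20 in HepG2 but 43.71, 42.25 and 43.11 against 23.08, 24.80 and 26.51 in LM3. The groups of both genes were apart in both lines, and for MRPL10 the knockdown levels were close between lines while the control level of LM3 was the lower. Its log2 difference was 0.21 (adjusted p = 0.00553) in HepG2, 0.12 (adjusted p = 0.0853) there after quantile normalization, and 0.77 (adjusted p = 6.98e-06) in LM3.

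5 MRPL genes fell in HepG2. MRPL20, needed for an early step of large subunit build-up in bacteria, had 27.11, 35.55 and 32.28 after siFASRL against 45.89, 48.44 and 47.29 after siNC in HepG2. LM3 had 57.03, 59.66 and 56.21 against 65.55, 85.16 and 85.61. Knockdown libraries were below all controls in both lines (log2 difference -0.57, adjusted p = 0.000204, and -0.43, adjusted p = 0.00368). In RefSeq, 34 of the 66 members have at least 1 numbered pseudogene and 30 overlap another gene. The 30 include MRPL14, MRPL20, MRPL23 and MRPL34, which fell in HepG2, and MRPL1, MRPL2, MRPL47 and MRPS34, which rose there. MRPL30 and MRPS14, which also fell in HepG2, overlap no other gene. Whether counting used strand is not given in the sources used here. Values of members with an overlap or a pseudogene may therefore include reads of those other genes.

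MRPL34, a small protein of bacterial origin, was listed at 47.74, 65.42 and 63.50 against 78.82, 94.97 and 87.76 in HepG2 and at 41.76, 44.23 and 42.58 against 49.36, 64.90 and 61.29 in LM3. It was lower after siFASRL with no overlap in either line (-0.57, adjusted p = 0.00121, and -0.43, adjusted p = 0.00295). MRPL14, which lies at the face that meets the small subunit, had 29.54, 37.41 and 35.03 against 49.27, 58.59 and 46.26 in HepG2. In LM3 its 23.36, 25.68 and 23.00 lay within the control range of 20.80, 29.70 and 33.04. The fall in HepG2 passed (-0.58, adjusted p = 0.000510), the LM3 difference of -0.18 did not (adjusted p = 0.277), and the difference between lines was 0.40 (adjusted p = 0.124), or 0.53 (adjusted p = 0.0406) without LM3 siNC replicate 3. Without LM3 siNC replicate 1, the LM3 difference was -0.37 (adjusted p = 0.00056).

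MRPL23, a protein at the tunnel exit, averaged 43.1 ± 3.18 after siFASRL and 56.4 ± 8.59 after siNC (SD, n = 3) in HepG2, where it fell, with a log2 difference of -0.37 (adjusted p = 0.00643, or 0.0809 in the joint fit of all libraries). Its LM3 values were 12.55, 14.67 and 11.84 against 9.64, 17.17 and 19.44. These overlapped (-0.18, adjusted p = 0.465), and the difference was -0.46 (adjusted p = 0.000862) without LM3 siNC replicate 1 and 0.01 without replicate 3. MRPL30 had 11.76, 13.62 and 13.86 against 15.82, 17.30 and 17.09 in HepG2, a fall of -0.34 (adjusted p = 0.00156). LM3 listed 37.70, 36.95 and 38.20 against 36.09, 35.67 and 35.56, a log2 difference of 0.07 (adjusted p = 0.191), or 0.19 (adjusted p = 0.00581) after median-of-ratios scaling.

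**Figure D3:**
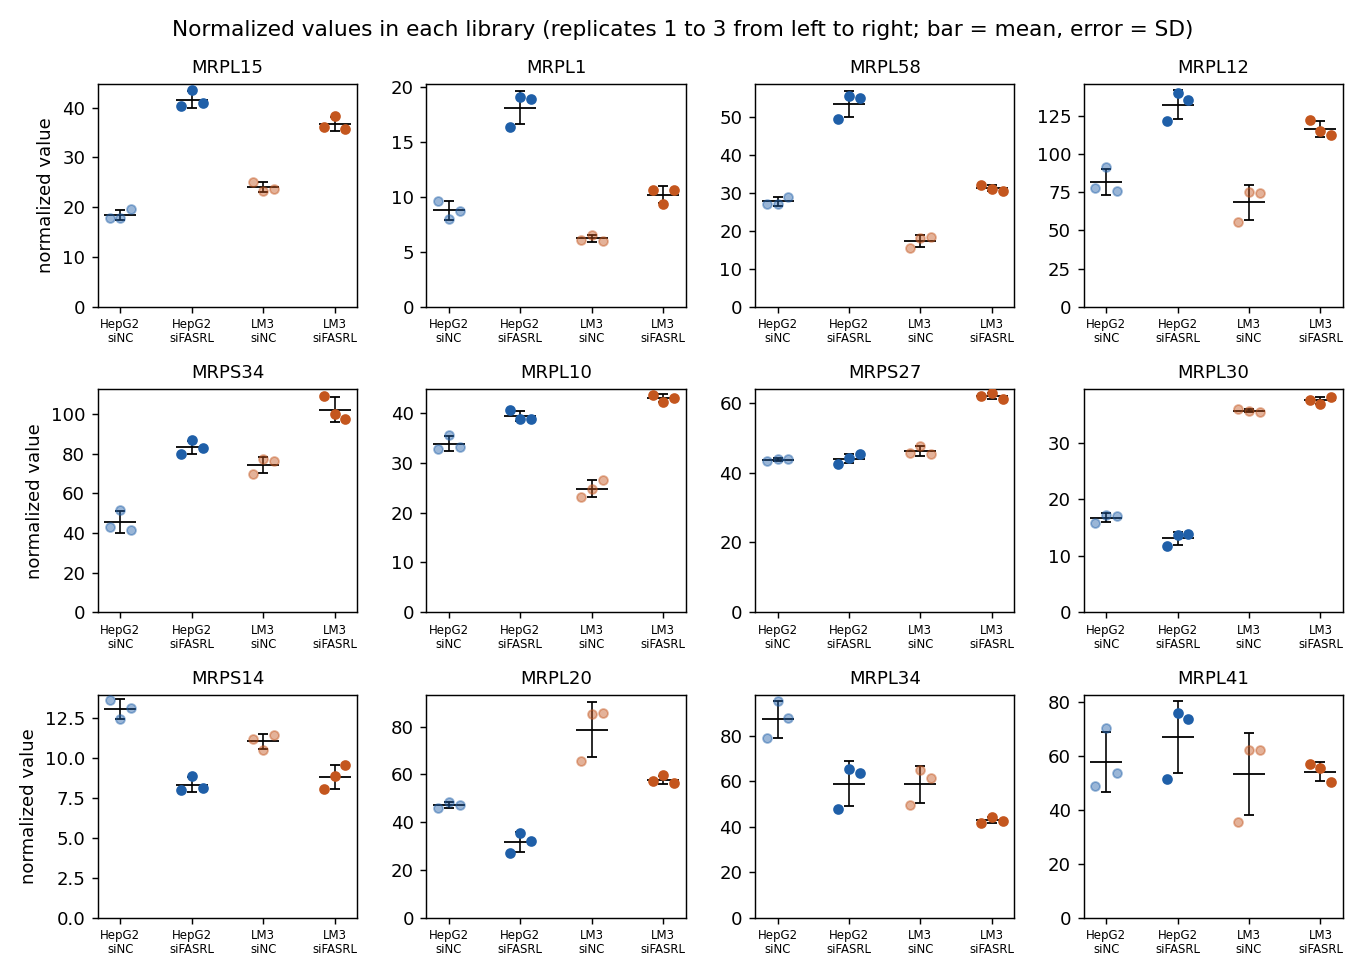
Normalized value of 12 members in each of the 12 libraries, with the mean as a bar and the SD as the error, and separate scales by gene. MRPL15, MRPL1, MRPL58, MRPL12 and MRPS34 stand higher after siFASRL in both lines, MRPS14, MRPL20 and MRPL34 lower, and MRPL41 shows libraries of one group far apart.

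In the small subunit, MRPS34, a mitochondria-specific protein needed for a stable small subunit, had the largest difference in HepG2. It was listed at 80.11, 86.77 and 83.02 against 43.08, 51.60 and 41.64, and in LM3 at 109.16, 100.26 and 97.35 against 69.92, 77.30 and 76.37. Knockdown and control did not overlap (0.87, adjusted p = 7.50e-06, and 0.45, adjusted p = 0.000245). MRPS31 led the small subunit in LM3, with 17.92, 18.68 and 18.11 against 11.10, 10.36 and 10.17, and had 13.50, 14.89 and 13.17 against 11.12, 9.50 and 10.37 in HepG2. It was among the 3 members with the lowest mean over the 6 siNC libraries and rose in both lines (0.74, adjusted p = 4.51e-06, and 0.39, adjusted p = 0.000570).

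3 paralogs carry the MRPS18 name, and structures of the ribosome place MRPS18A in the large subunit and the other 2 in the small. MRPS18A averaged 64.4 ± 2.83 after siFASRL and 48.7 ± 1.83 after siNC (SD, n = 3) in HepG2, and 36.4 ± 1.26 and 23.0 ± 1.86 (SD, n = 3) in LM3. MRPS18B had 109.40, 123.41 and 120.32 against 71.29, 76.14 and 80.11 in HepG2, and 59.47, 58.79 and 55.09 against 35.31, 38.90 and 39.07 in LM3. MRPS18C averaged 26.7 ± 3.01 and 17.0 ± 0.951 (SD, n = 3) in HepG2, and 28.0 ± 1.97 and 17.4 ± 0.859 (SD, n = 3) in LM3. In all 3 the groups were apart in both lines, with log2 differences of 0.39 and 0.64 for MRPS18A, 0.63 and 0.60 for MRPS18B, and 0.62 and 0.66 for MRPS18C. Of numbered pseudogenes in RefSeq, MRPS18C has 6. MRPS30, also a large subunit protein by structure, had log2 differences of 0.64 (adjusted p = 0.000257) and 0.56 (adjusted p = 4.82e-05).

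MRPS14 was the single MRPS gene that fell. This protein of the small subunit head had 8.01, 8.84 and 8.08 against 13.63, 12.42 and 13.11 in HepG2, and 8.05, 8.85 and 9.53 against 11.19, 10.49 and 11.41 in LM3. No knockdown library reached the controls in either line (-0.59, adjusted p = 1.29e-05, and -0.30, adjusted p = 0.00343). After quantile normalization the LM3 difference was -0.15 (adjusted p = 0.0789). MRPS27, a pentatricopeptide repeat protein, had 42.54, 44.13 and 45.37 against 43.20, 43.97 and 43.84 in HepG2, where the groups overlapped (0.01, adjusted p = 0.849). In LM3 it had 61.79, 62.88 and 61.20 against 45.64, 47.66 and 45.21, all higher after siFASRL (0.42, adjusted p = 7.04e-05).

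Taken by subunit, 32 of 44 MRPL genes rose and 5 fell in HepG2, and 18 of 22 MRPS genes rose and 1 fell, beside 44.8% and 44.3% of all genes. In LM3 the counts were 29 and 2 for MRPL and 18 and 1 for MRPS, beside 33.9% and 43.5%, and the same shares apply to the classes below. The median difference was 0.31 for MRPL and 0.38 for MRPS in HepG2, and 0.29 and 0.43 in LM3. Moving MRPS18A and MRPS30 to the large subunit, as structures have them, gave 0.32 and 0.37 in HepG2 and 0.31 and 0.36 in LM3, so the gap in LM3 narrowed from -0.14 to -0.06. Members with a bacterial counterpart numbered 40 and had medians of 0.35 in HepG2 and 0.27 in LM3. The 26 mitochondria-specific members had 0.35 and 0.34. All 6 members that fell in HepG2 were of the bacterial class, in which 30 rose. Of the 26 mitochondria-specific members, 20 rose and 0 fell in HepG2. In LM3, 26 members of the bacterial class rose and 3 fell, and 21 mitochondria-specific members rose and 0 fell. The classes follow the unified protein names, which put MRPS18A and MRPS18B in the mitochondria-specific class and their paralog MRPS18C in the bacterial class. These are descriptions of the members and were not tested.

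The difference between the lines was tested gene by gene as the LM3 effect minus the HepG2 effect. It passed in 18 members. In 7 the LM3 effect was above that of HepG2, beside 19.5% of 8285 genes tested, and in 11 below, beside 27.2%, with a member median of -0.03 beside -0.05 over all genes. MRPL10 had the lowest p, at 0.56 (SE 0.0787, adjusted p = 7.93e-05), followed by MRPL15 at -0.54 (SE 0.0781, adjusted p = 9.76e-05) and MRPS27 at 0.41 (SE 0.0623, adjusted p = 0.000160). MRPL45, which links the ribosome to the inner membrane, had 45.98, 47.82 and 49.17 against 41.23, 45.33 and 42.10 in HepG2. LM3 had 38.48, 37.34 and 38.73 against 25.11, 27.34 and 26.68. Its knockdown values were above the controls in both lines, and the gap was wider in LM3 by 0.37 (SE 0.0738, adjusted p = 0.00121). The rise in HepG2, 0.15 (adjusted p = 0.0370), missed the threshold after quantile normalization (0.02) and without HepG2 siFASRL replicate 2 or 3 or siNC replicate 1 or 3, where it was 0.12 to 0.15. The difference for MRPL30 was 0.41 (SE 0.0844, adjusted p = 0.00157), and in that gene HepG2 and LM3 went in opposite directions, of which the fall in HepG2 passed its own test. The differences of MRPL1 (-0.33, adjusted p = 0.0246) and MRPS18A (0.25, adjusted p = 0.0308) kept their size but missed the threshold with replicate number as a block (adjusted p = 0.0597 and 0.053), and missed it without any of several single libraries of either line. For MRPL1 the difference between lines was -0.27 (adjusted p = 0.0578) after median-of-ratios scaling. The count of 11 was 7 with a replicate block and ran from 6 to 15 when each library was left out in turn, with 6 without HepG2 siFASRL replicate 2 or HepG2 siNC replicate 2. Scaling by the median of ratios left 4 members in place of 11 with the lower effect in LM3, and 10 in place of 7 with the higher. The shares of all genes under these alternatives are not given here, so the changed counts are not read as a result about the members.

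**Figure D4:**
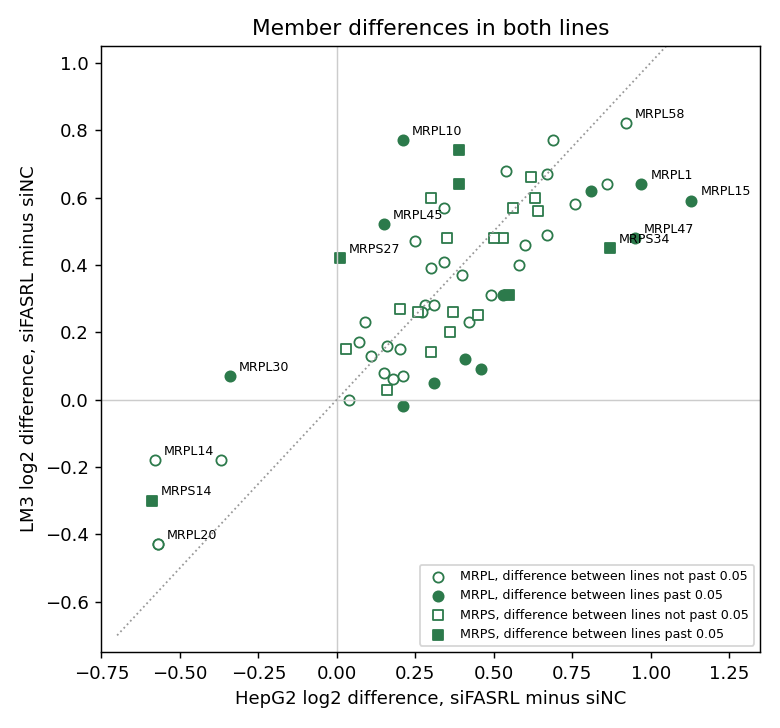
LM3 against HepG2 log2 difference for the 66 members, with circles for MRPL, squares for MRPS, filled symbols for a difference between lines past an adjusted p of 0.05, and a dotted line of equal effects. MRPL10, MRPL45, MRPS27 and MRPL30 lie above the line, and MRPL15, MRPL47, MRPL1 and MRPS34 below it.

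In the siNC libraries, 24 members were higher in LM3 than in HepG2, beside 41.5% of all genes, and 22 lower, beside 42.1%. Values in siNC were highest for MRPL51, MRPL37 and MRPS24, at means of 138, 136 and 130 over the 6 libraries of both lines, and lowest for MRPL1, MRPL22 and MRPS31, at 7.48, 8.0 and 10.4. Within a line the order differed, with MRPS24 first in HepG2 (135) and MRPL37 in LM3 (155), and with MRPL19 (10.4) below MRPS31 in LM3. Whether the values are FPKM or TPM is not given in the sources used here, so the listed values are not read as an order of abundance. MRPL51 and MRPL37 are mitochondria-specific proteins of the large subunit. MRPL51 had log2 differences of 0.30 (adjusted p = 0.0137), or 0.17 (adjusted p = 0.0938) after quantile normalization, and 0.39 (adjusted p = 0.00226), and MRPL37 had 0.11 (adjusted p = 0.0746, or 0.0379 in the joint fit, and -0.06 after quantile normalization) and 0.13 (adjusted p = 0.0448), the last of which missed the threshold without any 1 of 5 of the 6 LM3 libraries. MRPL37 in LM3 was 0.00 after quantile normalization and 0.25 (adjusted p = 0.00196) after median-of-ratios scaling. MRPS24, at the entry of the messenger RNA channel, had 0.30 (adjusted p = 0.00158) and 0.14 (adjusted p = 0.0536), the LM3 value being 0.18 (adjusted p = 0.0279) without siNC replicate 2 and 0.26 (adjusted p = 0.00302) after median-of-ratios scaling. It also passed with a minimum of 5, a mean-variance trend or the joint fit. MRPL22, which lines the peptide tunnel, averaged 9.67 ± 0.692 after siFASRL and 7.03 ± 0.221 after siNC (SD, n = 3) in HepG2, where it rose. In LM3 it had 9.86 ± 0.578 and 8.97 ± 0.215 (SD, n = 3), a difference of 0.12 that did not pass (adjusted p = 0.0752), against 0.17 (adjusted p = 0.0333) without siFASRL replicate 1 and 0.14 (adjusted p = 0.0377) without siNC replicate 1. MRPL22 in LM3 was 0.23 (adjusted p = 0.00524) after median-of-ratios scaling and 0.28 (adjusted p = 0.0022) after quantile normalization. The difference between lines was -0.29 (adjusted p = 0.0119).

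Libraries of the same group stood apart for some members. MRPL41, chosen after its values were seen and with 71.9% G and C in its longest coding transcript, was listed at 35.55, 62.24 and 61.99 in LM3 siNC and at 51.59, 75.93 and 73.58 in HepG2 siFASRL, with replicate 1 the lowest each time. Over the 66 members, the deviation of a library from its group mean had a Spearman correlation with transcript GC content of -0.738 for LM3 siFASRL replicate 3, -0.646 for LM3 siNC replicate 1, 0.629 for LM3 siNC replicate 3 and -0.547 for HepG2 siNC replicate 1. Over 8174 genes these were -0.438, -0.464, 0.382 and -0.363. For HepG2 siFASRL replicate 1 it was 0.0657 over the members and -0.0116 over 8174 genes. The difference between siFASRL and siNC had a correlation with GC content of 0.0265 over the members in HepG2 and 0.0633 in LM3. With transcript length it was -0.215 over the members in HepG2 and -0.0584 in LM3. Over all genes tested the length correlations were -0.0458 and -0.121. The median transcript length was 1516 bases for the members and 3414 for all genes tested. These correlations run across genes of the same libraries and are descriptive. HepG2 siFASRL replicate 1 was the lowest of its group for 42 of the 66 members, beside 43.0% of all genes, and LM3 siNC replicate 1 for 36, beside 40.5%. Without LM3 siNC replicate 1, 6 members fell in LM3 in place of 3, while 49 rose. The shares of all genes in that fit are not given here, so these counts are not read as a result about the members.

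Genes that work beside these proteins were described from lists by role. Of 3 listed mitoribosome proteins under other symbols, GADD45GIP1 rose by 0.78 (adjusted p = 1.03e-05) in HepG2 and 0.61 (adjusted p = 0.000210) in LM3, and DAP3, the small subunit GTP-binding protein, by 0.38 (adjusted p = 0.000907) and 0.27 (adjusted p = 0.00201). AURKAIP1 had 0.15 in each line, past the threshold in HepG2 (adjusted p = 0.0369) and not in LM3 (adjusted p = 0.0624). AURKAIP1 in LM3 passed after median-of-ratios scaling (0.27, adjusted p = 0.00446), in the joint fit (adjusted p = 0.0438) and without LM3 siNC replicate 3 (0.20, adjusted p = 0.0278). In HepG2 it was -0.01 (adjusted p = 0.926) after quantile normalization and missed the threshold without siFASRL replicate 2 or 3 or siNC replicate 1 or 3. Of 21 listed assembly factors, 15 rose (71.4%, beside 44.8% of all genes) and 2 fell (9.52%, beside 44.3%) in HepG2. In LM3, 16 rose (76.2%, beside 33.9%) and 1 fell (4.76%, beside 43.5%). Among them NGRN rose by 0.67 and 0.54, the 2'-O-methyltransferase MRM3, which modifies the large ribosomal RNA, by 0.60 and 0.69, and the GTPase GTPBP10 by 0.28 and 0.72. The largest difference of the list was a fall, of NDUFAB1, the mitochondrial acyl carrier protein, at -1.16 (adjusted p = 1.96e-05) in HepG2 and -1.03 (adjusted p = 0.000113) in LM3, named after its values were seen.

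Of 11 listed translation factors, 6 rose (54.5%, beside 44.8% of all genes) and 4 fell (36.4%, beside 44.3%) in HepG2. In LM3, 5 rose (45.5%, beside 33.9%) and 3 fell (27.3%, beside 43.5%). TSFM, the exchange factor of the elongation factor TUFM, fell by 0.44 in HepG2 (adjusted p = 0.000165) and by 0.55 in LM3 (adjusted p = 1.42e-05), and GFM2, which recycles ribosomes, fell by 0.58 and 0.60. The release factor MTRF1L rose by 0.48 and 0.27. Of 20 genes of mitochondrial transcription and RNA processing, 16 rose (80%) and 2 fell (10%) in HepG2, and 13 rose (65%) and 1 fell (5%) in LM3, against the same shares of all genes. The mitochondrial DNA helicase TWNK rose by 0.74 and 0.68, the RNA stability protein SLIRP by 0.63 and 0.67, and the transcription factor TFB2M by 0.52 and 0.58. TFAM, which packages mitochondrial DNA and was named after its values were seen, fell in HepG2 (-0.62, adjusted p = 9.84e-05), was at -0.06 (adjusted p = 0.594) in LM3, and differed between lines by 0.56 (adjusted p = 0.00625).

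**Figure D5:**
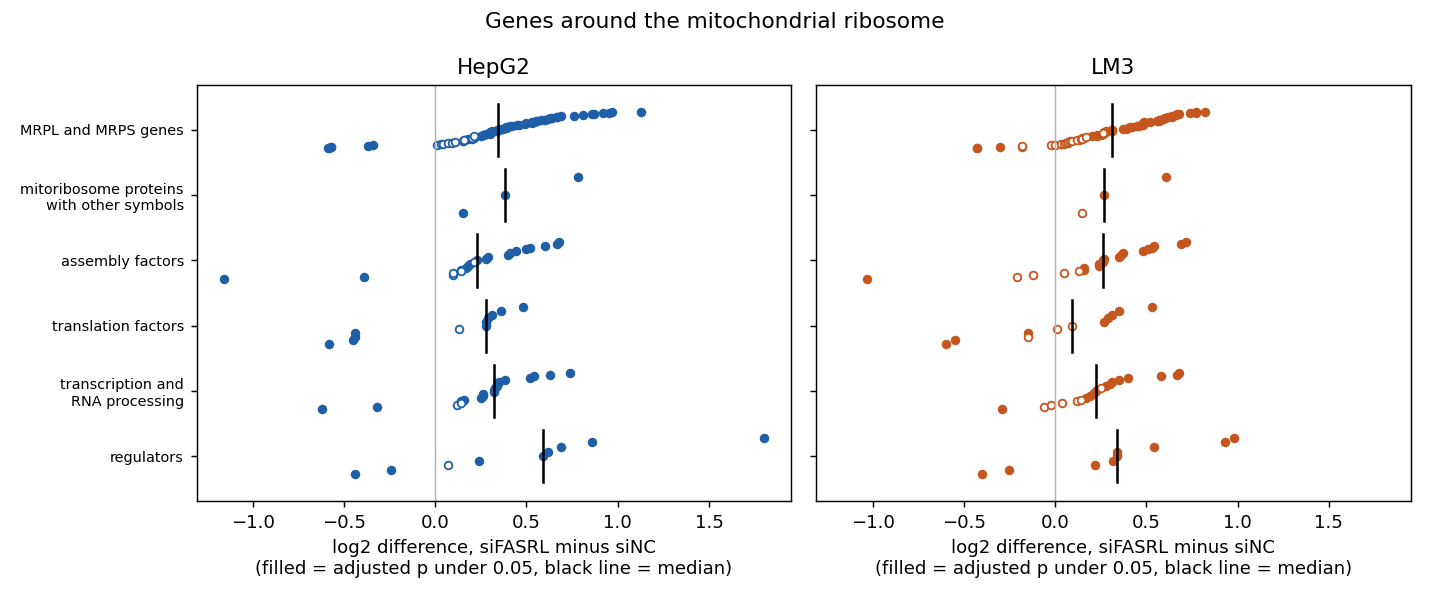
Log2 difference between siFASRL and siNC in HepG2 and LM3 for the 66 members and 5 lists of related genes, with filled points for an adjusted p under 0.05 and a black line at the median. Medians are above 0 for every list shown, and translation factors include genes on both sides.

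Regulators of nuclear genes for mitochondria included large differences. GABPB1, a subunit of the ETS factor GABP, had 31.79, 36.92 and 33.66 against 8.34, 10.40 and 8.53 in HepG2, and 27.20, 26.21 and 28.15 against 13.14, 13.73 and 14.52 in LM3. All knockdown libraries were above the controls, with log2 differences of 1.80 (SE 0.0878, adjusted p = 1.49e-07) and 0.93 (SE 0.0562, adjusted p = 2.09e-06). MYC rose by 0.62 and 0.98, and GABPB2, the other GABP beta subunit, by 0.86 and 0.34. Of 9 regulators listed, 6 rose (66.7%, beside 44.8% of all genes) and 2 fell (22.2%, beside 44.3%) in HepG2. In LM3, 7 rose (77.8%, beside 33.9%) and 2 fell (22.2%, beside 43.5%). One that fell was GABPA, the DNA-binding subunit of GABP, chosen for mention after its values were seen, at -0.44 (adjusted p = 7.55e-05) and -0.40 (adjusted p = 0.000238). The 28 mitochondrially encoded genes were not analysed here.

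Promoters of the members were searched for 4 short motifs. RefSeq starts (GRCh38.p14) were matched for 59 of the 66 members, with 74 promoters of 250 bases before to 50 after a start. MRPL2, MRPL10, MRPL13, MRPL15, MRPL21, MRPL23 and MRPS28 were not matched. The letters CCGGAAG, the core bound by ETS factors such as GABP, were found on either strand in 39.2% of member promoters and in 10.3% of all 35116 promoters, or 12.8% of those of protein-coding genes. AAGATGGC, the core of the YY1 motif, was in 31.1% against 2.89% and 3.53%. GCGCANGCG, part of the NRF1 motif, was in 16.2% against 7.52% and 9.64%, and the E-box CACGTG in 10.8% against 7.26% and 8.34%. In the sequences shown no match overlaps another. A match describes letters and no binding was measured.

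The promoters shown were chosen because they hold a match. They are those of MRPL58, MRPS34 and MRPS31, among the largest rises of a line, MRPS18A and MRPS30, which structures place in the large subunit, MRPS27, which differed between lines, and MRPL20, which fell in both, and they span 100 bases before to 30 after the start with matches in capitals. In MRPL58 (chr17:75012570-75012699, plus strand) and MRPS31 (chr13:40771161-40771290, minus strand) the match is the ETS core, which MRPS34 (chr16:1773105-1773234, minus strand) holds 3 times. MRPS18A (chr6:43687762-43687891, minus strand) has the ETS and the YY1 core. MRPS27 (chr5:72320211-72320340, minus strand) and MRPS30 (chr5:44808847-44808976, plus strand) have the YY1 core. MRPL20 (chr1:1407264-1407393, minus strand), holds 2 ETS cores and the YY1 core. None of the 4 motifs was in the promoters of 14 of the 59 matched members, 11 of which rose in HepG2, MRPL1 and MRPL12 among them, and 1 of which, MRPS14, fell, where 46 of all 59 rose and 5 fell. Of the other matched members that fell in HepG2, MRPL30 held the ETS core as MRPL20 did, and MRPL14 and MRPL34 held neither the ETS nor the YY1 core. The NRF1 match was found for MRPL14, MRPL20, MRPL30 and MRPL34, and for 11 of all 59 matched members. MRPL14 also held the E-box. Whether motifs and direction go together was not tested.
MRPL58: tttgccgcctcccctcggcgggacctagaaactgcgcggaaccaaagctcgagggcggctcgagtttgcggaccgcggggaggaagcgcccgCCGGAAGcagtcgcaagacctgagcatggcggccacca
MRPS34: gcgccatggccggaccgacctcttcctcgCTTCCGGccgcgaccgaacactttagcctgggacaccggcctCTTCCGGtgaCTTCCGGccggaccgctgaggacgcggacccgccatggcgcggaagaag
MRPS31: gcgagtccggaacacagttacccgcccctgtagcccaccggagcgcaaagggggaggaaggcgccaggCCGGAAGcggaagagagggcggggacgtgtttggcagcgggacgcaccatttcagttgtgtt
MRPS18A: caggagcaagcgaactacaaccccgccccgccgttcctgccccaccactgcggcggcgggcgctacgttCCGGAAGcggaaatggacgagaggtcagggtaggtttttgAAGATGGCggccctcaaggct
MRPS27: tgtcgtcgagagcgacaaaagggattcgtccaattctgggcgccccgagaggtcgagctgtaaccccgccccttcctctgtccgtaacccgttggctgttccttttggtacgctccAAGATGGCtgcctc
MRPS30: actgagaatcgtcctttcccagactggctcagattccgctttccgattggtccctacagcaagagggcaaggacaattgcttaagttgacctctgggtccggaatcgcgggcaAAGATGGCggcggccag
MRPL20: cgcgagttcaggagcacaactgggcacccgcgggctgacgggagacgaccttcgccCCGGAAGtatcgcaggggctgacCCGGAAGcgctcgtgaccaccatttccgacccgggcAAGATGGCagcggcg

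MRPL46 and MRPS11 are transcribed away from each other on chromosome 15 with 320 bases between their starts. MRPL46 had log2 differences of 0.58 (adjusted p = 7.81e-05) in HepG2 and 0.40 (adjusted p = 0.000308) in LM3, and MRPS11 had 0.26 (adjusted p = 0.00362) and 0.26 (adjusted p = 0.0833). The pair was chosen for its position after the values were seen. In all, 19 of the 59 matched members had a protein-coding gene starting within 1000 bases on the opposite strand and pointing away. The share of all protein-coding genes with such a neighbour was not computed, so this count is not read as a trait of members.

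Set beside the members, 57 listed genes of the cytosolic ribosome had a median difference of 0.26 in HepG2, where 35 rose (61.4%, beside 44.8% of all genes) and 4 fell (7.02%, beside 44.3%). In LM3 the median was 0.41, and 52 rose (91.2%, beside 33.9%) and 4 fell (7.02%, beside 43.5%). This list was taken by symbol, and its differences ran from -4.72 to 1.77 in HepG2 and from -3.95 to 1.37 in LM3. Both lower ends were also the lowest values over all genes tested. In HepG2, where 44.3% of all genes fell, all 9 listed hepatocyte markers did, among them ALB (815 to 235), AFP (605 to 254) and APOA1 (268 to 70.6, means of 3 libraries), with log2 differences of -1.79, -1.25 and -1.90. Summed, the markers were at 1830, 1740 and 1790 after siFASRL and at 4060, 3980 and 3670 after siNC in HepG2, and at 7.73, 8.01 and 6.70 against 15.3, 18.4 and 17.6 in LM3. HNF4A made up most of the LM3 sums, at 6.32, 7.64 and 6.17 against 14.39, 14.40 and 14.23, and the 8 others were below 2 in each LM3 library. Of 6 fibroblast markers 5 were listed, and 4 of 4 tested fell in HepG2 (COL3A1 by 1.52, LUM by 1.44 and COL1A1 by 0.34). In LM3, where 43.5% of all genes fell, 2 of 2 tested did, COL1A1 by 1.45. Of 6 leukocyte markers CD68 was listed, at 0.11 (adjusted p = 0.374) in HepG2 and 0.23 (adjusted p = 0.0255) in LM3, a rise lost without any 1 of 5 of the 6 LM3 libraries. The part of these shifts in the member values was not tested.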

How the data were processed

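The values are those deposited by the authors, RNA-seq expression per gene from RSEM in a normalized unit other than counts, and whether it is FPKM or TPM is not given in the sources used here. The submitters' notes name HISAT2, Bowtie2 and hg19, whereas chromosome accessions in the tables are those of GRCh38. 6 repeat columns of LM3 samples, equal to those samples' own values in all 8842 genes, were not used. Per line, limma 3.58.1 in R 4.3.3 was fitted to log2(value + 1) over all listed genes that reached 1 in 3 or more libraries. The difference between lines was the interaction term of a fit to all 12 libraries. Benjamini-Hochberg adjustment ran over all genes tested, with a threshold of 0.05, two-sided. The procedure was tested on simulated data.

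Named members were the 5 largest increases and 5 largest decreases past the threshold in each line, the 5 lowest interaction p-values, the 3 highest and 3 lowest in siNC, and MRPS18A, MRPS18B, MRPS18C and MRPS30. In other lists they were the 3 genes with the lowest p. Members and lists were chosen with earlier results of these data known. The motifs, the promoters shown, the GC and length comparisons, the limits of the range with few listed genes and the cytosolic ribosome list were chosen after values were seen. Replicate numbers did not pair samples. Alternatives were a pseudocount of 0.1, no filter, a minimum of 5, median-of-ratios scaling, quantile normalization, a replicate block, a mean-variance trend, a joint fit, a log2 threshold of 1, subunits by structure and leaving out each library. Sequences were searched with Python 3.11.15.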

Additional observations from a re-analysis of the deposited data

Results flagged for a closer look

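These genes differed between the lines by the interaction test in limma, at an adjusted p under 0.05, and values are the LM3 effect minus the HepG2 effect on the log2 scale. The effect was higher in LM3 for MRPL10 (0.56), MRPL30 (0.41), MRPS27 (0.41), MRPL45 (0.37), MRPS31 (0.35), MRPS14 (0.30) and MRPS18A (0.25). It was lower in LM3 for MRPL15 (-0.54), MRPL47 (-0.47), MRPS34 (-0.41), MRPL54 (-0.36), MRPL1 (-0.33), MRPL22 (-0.29), MRPL27 (-0.26), MRPS22 (-0.24), MRPL28 (-0.23), MRPL49 (-0.22) and MRPL3 (-0.20). For MRPS14 both lines fell, and the positive value means a smaller fall in LM3. MRPL1 and MRPS18A missed the threshold with a replicate block. MRPL1 also missed it after median-of-ratios scaling, where 4 members in place of 11 had the lower effect in LM3. Among the related genes named in the text by rule, and not over the whole lists, it was higher for GTPBP10 (0.44) and MYC (0.36) and lower for GABPB1 (-0.87), GABPB2 (-0.52) and MTRF1L (-0.20).

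Named cell type markers were 1.73 for APOA1, 1.51 for COL3A1, 1.45 for ALB, 1.41 for LUM, 0.94 for AFP and -1.10 for COL1A1. Of these, all but COL1A1 were under the filter in LM3, with values near 0 there. With a pseudocount of 1, their values mostly restate the fall in HepG2 with its sign turned. They are therefore not read as a difference between the lines.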

How the results depend on the processing

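Of 1719 values of named genes under the alternatives, 1639 kept their direction and side of the threshold. Another 42 lost the threshold, 17 passed it, and 20 without a call in the main fit changed sign. Among called values, 1 changed sign, AURKAIP1 in HepG2 after quantile normalization (-0.01). Median-of-ratios scaling gave a member median of 0.42 in LM3 and 4 members with the lower effect in LM3. Quantile normalization gave a median of 0.24 in HepG2. A replicate block gave 7 members with the lower effect in LM3. Past a log2 difference of 1, in limma, HepG2 had 1 member changed, 1 higher and 0 lower, and LM3 0 changed, 0 higher and 0 lower. By structure the large minus small difference in LM3 was -0.06. No shares of all genes stand beside these counts between lines, and the cause of these shifts was not tested.

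Leaving out each library in turn gave 6 to 15 members with the lower effect in LM3, against 11, with 6 without HepG2 siFASRL replicate 2 or siNC replicate 2 and 7 without LM3 siFASRL replicate 1 or 2. Members lower in LM3 numbered 3 to 6, with no shares of all genes given for these fits. The large minus small difference was -0.09 to -0.04 in HepG2 and -0.17 to -0.08 in LM3. Depth is unknown, so no limit on low values follows from counts.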
